A study of Mus musculus with 12 samples.

Results

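Translation initiation and elongation factors load the ribosome onto an mRNA and move it along the codons. Their probe sets were compared between C57BL/6 thymocytes and thymocytes with the AND TCR transgene on the H-2b background. All probe sets with a single annotated gene symbol that begins with Eif or Eef were taken, except those for Eif2s3x, Eif2s3y and Eif2ak2. These were 121 of 36701 probe sets that were not Affymetrix controls and came from 57 genes. The Eif symbols accounted for 96 probe sets of 44 genes and the Eef symbols for 25 probe sets of 13 genes. The AND transgene encodes a TCR restricted to MHC class II, and H-2b is a background on which it is positively selected. C57BL/6 mice, the wild type of the comparison, carry H-2b as well and no TCR transgene. The labels describe both samples as total adult thymocytes, so the RNA came from a mixture of stages, and give neither the number of mice nor an exact age. There were 3 array types, U74Av2, U74Bv2 and U74Cv2, with 2 hybridizations of each group on every type and 12 arrays in all. The study's methods describe the repeats as independent experiments, but neither they nor the labels tie them to separate mice or RNA extractions. The p-values measure only the spread between these hybridizations, part of which may be technical.

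Initiation begins when eIF2 with GTP brings the initiator tRNA to the small ribosomal subunit, which eIF1, eIF1A, eIF3 and eIF5 help to assemble on the mRNA. The cap at the mRNA end is held by eIF4E, which eIF4G links to the helicase eIF4A and to the ribosome, and the proteins encoded by the Eif4ebp genes compete with eIF4G for eIF4E. Elongation uses eEF1A to deliver the charged tRNAs and eEF2 to move the ribosome. Thymocytes shift between small resting cells and large dividing blasts during development, and the rate of protein synthesis differs between such cells.

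Values are intensities on a linear scale in arbitrary units. A detection limit of 2 noise SDs, taken from the negative values of the arrays, was at 420.8 (U74Av2), 869.4 (U74Bv2) and 1579 (U74Cv2). Lower values were raised to this limit before taking log2, and the test was run on probe sets that exceeded the limit on both arrays of C57BL/6, of the transgenic group or of both. Fluidics module 2 had been used for every C57BL/6 array and module 4 for every transgenic array, and the module cannot be told apart from the group. Arrays with the same hybridization number had been run on the same day. Each difference below is a log2 fold change, AND-TCR–transgenic over C57BL/6, with its standard error (SE) and a 95% interval, from limma with 2 hybridizations per group.

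Stretches of the promoters are shown to let a reader see the sequence around the starts of these genes, since 2 of 4 motifs searched on both strands were common there. RefSeq (GRCm38.p6) windows from 250 bases before to 50 bases after the annotated start were at hand for 45 of the 57 genes. The E box CACGTG, the same on both strands and a site that Myc and related factors can bind, was in the windows of 12 genes (26.7%), against 11.9% of 6375 tested genes and 8.09% of all 27025 genes with a window. The following 30-base stretches carry it in capitals and are given 5′ to 3′ on the strand of the gene. That of Eef2 is chr10:81176576-81176605 (+), that of Eif4e chr3:138527192-138527221 (+), that of Eif3k chr7:28981915-28981944 (-) and that of Eif4a1 chr11:69672595-69672624 (-).
Eef2: acccggcgccgtCACGTGacgcacccaacc
Eif4e: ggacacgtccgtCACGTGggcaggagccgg
Eif3k: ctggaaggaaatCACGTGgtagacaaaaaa
Eif4a1: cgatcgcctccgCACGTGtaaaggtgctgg

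The ETS motif CCGGAAG, or CTTCCGG on the other strand, was in the windows of 16 of 45 genes (35.6%), against 22% of the tested genes and 9.93% of all genes. The motifs do not overlap each other in their letters, and a match is a description of the sequence only. Capitals mark the motif in the stretches of 3 eIF3 subunit genes and of Eif1ax, an eIF1A gene on the X chromosome. They lie at chr7:126566382-126566411 (-) for Eif3c, chr15:77970876-77970905 (-) for Eif3d, chr2:105017064-105017093 (-) for Eif3m and chrX:159371955-159371984 (+) for Eif1ax.
Eif3c: aaccttttcctCTTCCGGcgtcgtgcctgt
Eif3d: gctgtgacacaCTTCCGGttgtgtctcact
Eif3m: ctgtggctgacCCGGAAGcggttgtgcgta
Eif1ax: cctcccgccccCTTCCGGacgccggaggcc
The 22 tested probe sets of genes with the ETS motif had a median log2 fold change of -0.19, and the 30 without it one of -0.05. For the E box the medians were -0.06 over 12 probe sets with it and -0.11 over 40 without it. These medians were not compared by a test. Of the other motifs, TGACGTCA was in the window of 1 gene, Eef2 (3.48% of the tested genes), and TATAAA, or TTTATA, in those of 3 genes (8.6% of the tested genes).

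Most translation factors were measurable in thymocytes. Of the 121 probe sets, 64 from 46 genes were tested (52.9%, against 35% of all probe sets), and 58 of these were above the limit on all 4 arrays of their type. None of the 64 passed the test at an adjusted p under 0.05, in either direction, against 1.05% of all 12844 tested probe sets (0.483% higher and 0.568% lower). The lowest adjusted p among them was 0.191 in limma. At an unadjusted p under 0.05, 1 probe set was higher and 3 were lower, against 7.47% and 6.51% of all tested probe sets (14% in either direction). With the replicate number as a block, limma called 2.38% of all probe sets and none of the 64, with a lowest adjusted p of 0.238.

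The differences were small in size. The log2 fold changes ran from -0.93 to 0.81, and none of the 64 reached a difference of 2-fold, which 95.7% of all tested probe sets did not reach either. The probe sets at both ends, of Eif1ax and Eif3f, exceeded the limit on both arrays only in the group where they were higher. The median was -0.09, against 0.02 over all tested probe sets, with 23 positive and 41 negative values. For 55 of the 64 (85.9%, against 68.8% of all tested probe sets) the gap between the hybridizations of 1 group was larger than the difference between the groups. The 95% interval lay within 2-fold in either direction for 37 probe sets, while for the others it reached past 2-fold, so that a change of that size is not excluded there.

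**Figure D1:**
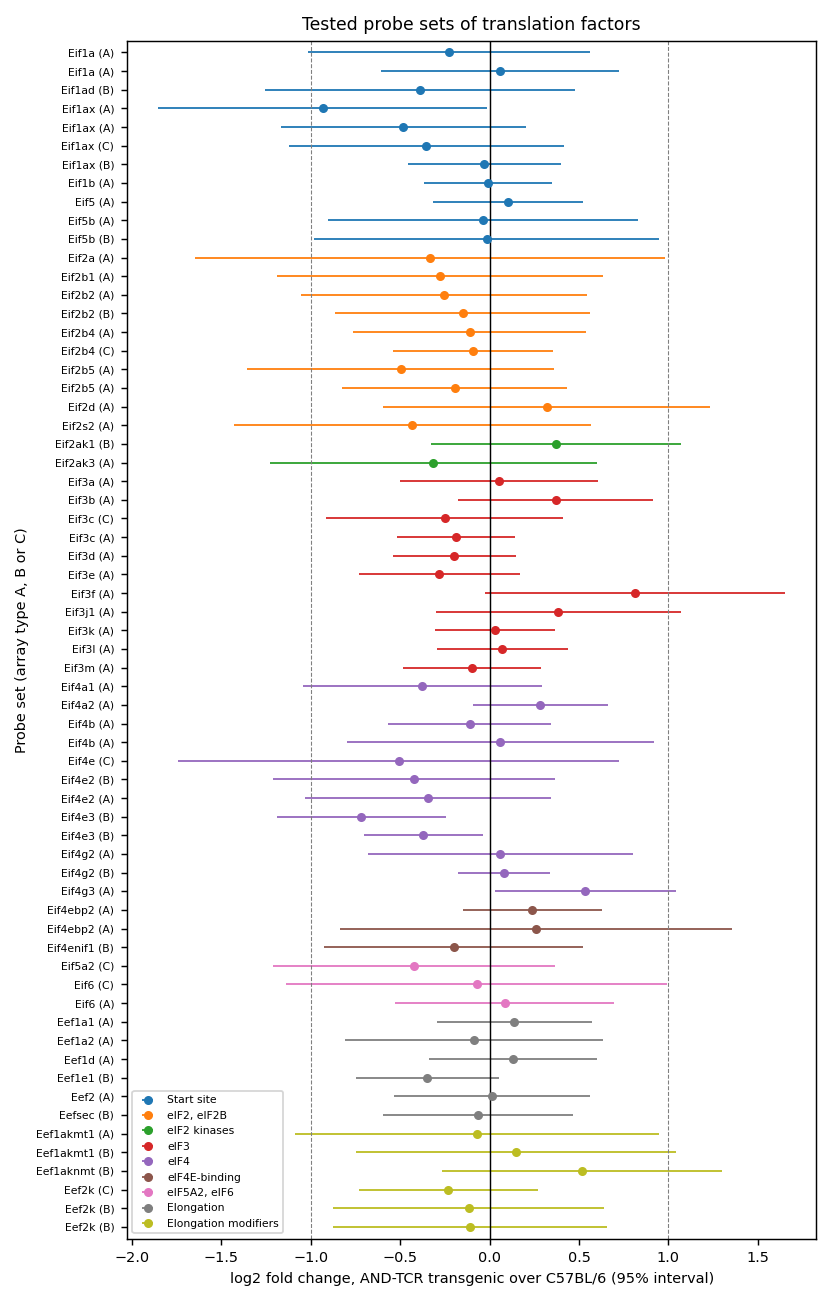
Log2 fold change, AND-TCR–transgenic over C57BL/6 (horizontal axis), of each tested probe set of a translation factor (vertical axis, with the array type A, B or C), colored by role. Bars are 95% intervals from limma, dashed lines mark 2-fold, and all 64 points lie between -0.93 and 0.81.

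The eIF4 group, which holds the eIF4E, eIF4G, eIF4A and eIF4B genes, had 12 tested probe sets. It contained 3 of the 4 probe sets with an unadjusted p under 0.05, including both of Eif4e3. Such a p was found for 14% of all tested probe sets. Eif4e3 encodes a relative of the cap-binding protein eIF4E. Its probe set with the lowest p, on U74Bv2, read 6096 and 6989 on the C57BL/6 arrays and 4602 and 3424 on the AND-TCR–transgenic arrays. Both transgenic arrays were under both C57BL/6 arrays, and the log2 fold change was -0.72 (SE 0.19, interval -1.19 to -0.25, unadjusted p = 0.0103, adjusted p = 0.191 in limma), a C57BL/6 level 1.64 times the transgenic one. This probe set passed the test in limma under 2 alternatives, without the filter on low values (adjusted p = 0.00926) and with a crossed replicate block (adjusted p = 0.035), and not with the replicate block (adjusted p = 0.238). These 2 settings also called more of all probe sets, 2.22% and 3.54%, against 1.05% as reported. The crossed block pairs arrays of unlike hybridization number, run on different days, and was added after the pairing correlations were seen. A second Eif4e3 probe set on the same arrays read 5541 and 5864 in C57BL/6 and 4538 and 4284 in transgenic thymocytes. Its groups did not overlap either, with a log2 fold change of -0.37 (SE 0.13, adjusted p = 0.31 in limma). Both probe sets were measured on the same RNA targets and are not separate replicates.

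Eif4g3, a relative of the scaffold eIF4G, was the probe set with the lowest p among those with positive values. It read 1822 and 1966 on the C57BL/6 arrays and 2819 and 2668 on the AND-TCR–transgenic arrays of U74Av2. The groups did not overlap, and the log2 fold change was 0.54 (SE 0.21, interval 0.03 to 1.04, unadjusted p = 0.0408, adjusted p = 0.33 in limma). Eif4g2, which encodes a shorter relative that does not bind eIF4E, had log2 fold changes of 0.06 and 0.08 on its 2 tested probe sets. The U74Bv2 probe set of Eif4g2 had an interval from -0.18 to 0.34. Eif4g1 was not analysed here.

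For the helicase genes the values had opposite signs. Eif4a2 read 9172 and 8270.2 in C57BL/6 and 11875 and 9452 in transgenic thymocytes, a log2 fold change of 0.28 (SE 0.16, adjusted p = 0.503 in limma). Eif4a1 read 3896 and 3283 in C57BL/6 and 3639 and 2088 in transgenic thymocytes, a log2 fold change of -0.38 (SE 0.28, adjusted p = 0.626 in limma). The sign of Eif4a1 turned, to 0.025, when 1 hybridization was left out. The difference between the helicases was not tested. Eif4b, the partner of the helicase, had values of -0.11 and 0.06 on 2 probe sets.

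The mRNA of the cap-binding protein itself, Eif4e, had 1 tested probe set, on U74Cv2, which is of the f_at kind designed on sequence shared within a family. The other Eif4e probe sets, both on U74Av2, were under the limit on all 4 arrays. The tested one read 10283 and 11839 in C57BL/6 and 14270.3 and 4215 in transgenic thymocytes. The transgenic arrays lay on both sides of the C57BL/6 ones, so that the log2 fold change of -0.51 (SE 0.52, adjusted p = 0.729 in limma) had an interval from -1.74 to 0.73. The transgenic array of the second hybridization decided the sign, and without it the value was 0.37. Eif4e2, an eIF4E relative, had log2 fold changes of -0.35 and -0.42 on 2 probe sets, with adjusted p of 0.666 and 0.633 in limma. Of the proteins that bind eIF4E, Eif4ebp2 was at 9362 and 9308 in C57BL/6 and 9611 and 12632 in transgenic thymocytes, a log2 fold change of 0.24 (SE 0.16, adjusted p = 0.588 in limma). The other tested Eif4ebp2 probe set had 0.26. Eif4enif1, which carries eIF4E into the nucleus, had -0.20, and the probe set for Eif4ebp1 was under the limit on all 4 arrays.

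**Figure D2:**
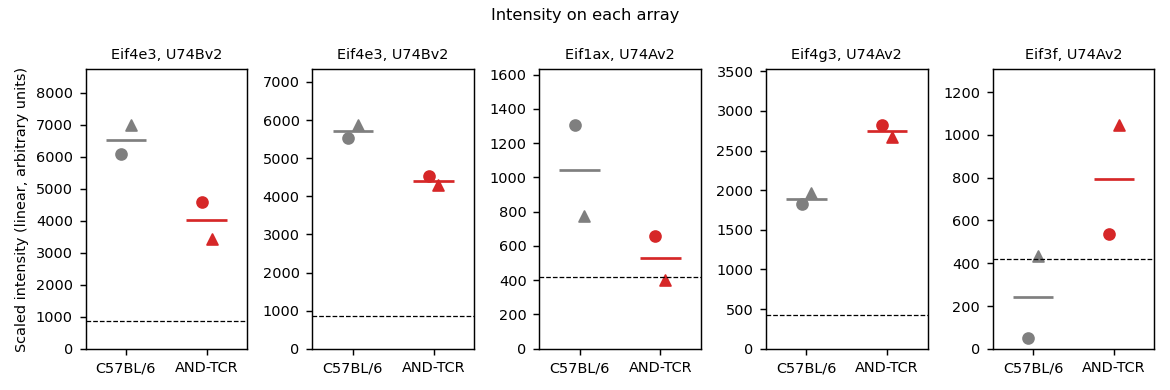
Scaled intensity (linear, arbitrary units) on each C57BL/6 and AND-TCR–transgenic array for both Eif4e3 probe sets, the Eif1ax probe set with the lowest p, Eif4g3 and Eif3f. Circles are first and triangles second hybridizations, lines are group means and the dashed line is the detection limit. The panels show the 4 probe sets with an unadjusted p under 0.05 in limma and the one with the highest log2 fold change. The groups do not overlap in any of the 5 panels, which this choice favors. Of all tested probe sets, 23% were higher and 21.4% lower without overlap.

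Among the factors for scanning and start codon choice, 9 of 11 tested probe sets had negative values (81.8%, against 48% of all tested probe sets). The median log2 fold change was -0.04, with a median log2 ratio of 0.07 in the first hybridizations and -0.36 in the second. Of the 11, 4 were probe sets of Eif1ax. The fourth probe set with an unadjusted p under 0.05 was one for Eif1ax on U74Av2. It read 1305 and 777 in C57BL/6 and 659 and 402 in transgenic thymocytes, the last of these under the detection limit. The probe set was thus tested only through the C57BL/6 arrays, where it was higher. The groups did not overlap, and the log2 fold change was -0.93 (SE 0.39, unadjusted p = 0.0472, adjusted p = 0.35 in limma). The other tested Eif1ax probe sets had log2 fold changes of -0.48 on U74Av2, -0.36 on U74Cv2 and -0.03 on U74Bv2, so the signs were alike, except that the U74Bv2 value turned to 0.044 after quantile normalization, and the sizes differed by 0.90. The groups also differed in genes of the sex chromosomes. Xist, the RNA that silences one X chromosome in females, read 2878 and 3001 in C57BL/6 and -52.8 and -98.6 in transgenic thymocytes, and the Y-linked Kdm5d was under the limit in C57BL/6 and read 2897 and 2868 in transgenic thymocytes. The part of this in the Eif1ax values was not tested.

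The remaining start-site factors differed little. Eif1b, a close relative of eIF1, read 5135 and 5706 in C57BL/6 and 5198 and 5566 in transgenic thymocytes, with an interval from -0.37 to 0.35. Eif5, which stimulates GTP hydrolysis by eIF2, read 3473 and 4062 in C57BL/6 and 3816 and 4263 in transgenic thymocytes, with a log2 fold change of 0.10. The groups of both genes overlapped. Eif5b, the GTPase that joins the ribosomal subunits, had values of -0.04 and -0.02 with intervals from -0.91 to 0.83 and from -0.98 to 0.95. Eif1ad had -0.39, and its sign turned to 0.12 without the second transgenic hybridization.

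For eIF2 and its exchange factor eIF2B, 9 of 10 tested probe sets had negative values (90%, against 48% of all tested probe sets) and none passed the test. All 7 tested eIF2B probe sets, from Eif2b1, Eif2b2, Eif2b4 and Eif2b5, were negative, with a median log2 fold change of -0.19 and a lowest adjusted p of 0.613 in limma. Their median log2 ratio was 0.05 in the first hybridizations and -0.45 in the second. The replicate gaps of all 7 exceeded the group difference, and 1 of them had the same sign within each hybridization number. Eif2b5, the catalytic subunit, read 807 and 1135 in C57BL/6 and 835 and 550.2 in transgenic thymocytes, a log2 fold change of -0.50 (SE 0.36). Its second probe set had -0.19. Eif2s2, the beta subunit of eIF2, read 812 and 1258 in C57BL/6 and 1025 and 547 in transgenic thymocytes. One transgenic array of Eif2s2 lay between the C57BL/6 arrays and the other under both, and the log2 fold change of -0.43 had an SE of 0.42. Eif2a, which can bring initiator tRNA without eIF2, showed one of the widest gaps between hybridizations, with 3381 and 938 in C57BL/6. Eif2d had 0.32 with an interval from -0.59 to 1.23. The eIF2 kinases, which slow initiation when a cell is stressed, had values of 0.37 for Eif2ak1, which senses heme (an f_at probe set, at 0.010 without the second transgenic hybridization), and -0.31 for Eif2ak3, which senses unfolded proteins in the endoplasmic reticulum. The group intensities of both kinases overlapped, and Eif2s1 was not analysed here.

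The subunits of eIF3, the largest initiation factor, were mostly measured with narrow intervals. Of 11 tested probe sets 6 were positive and 5 negative, with a median of 0.03, and the intervals of 9 lay within 2-fold in either direction. Eif3k read 6132 and 6788 in C57BL/6 and 6536 and 6655 in transgenic thymocytes, with an interval from -0.30 to 0.37. Eif3l read 9177 and 9539 in C57BL/6 and 8785 and 10999 in transgenic thymocytes, with an interval from -0.29 to 0.44. The groups overlapped for both. For Eif3c, a core subunit, the groups did not overlap on either probe set, at log2 fold changes of -0.19 on U74Av2 and -0.25 on U74Cv2. Eif3d read 6617 and 6980.5 in C57BL/6 and 5600.1 and 6274 in transgenic thymocytes, without overlap and with a log2 fold change of -0.20 (SE 0.15, adjusted p = 0.618 in limma). Eif3b read 4176 and 5358 in C57BL/6 and 5001 and 7463 in transgenic thymocytes, with 0.37 (SE 0.23, adjusted p = 0.546 in limma). Eif3e had -0.28.

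Eif3f had the highest positive value of all 64 and one of the lowest intensities. It read 50.4 and 433 in C57BL/6 and 538 and 1046 in transgenic thymocytes. The first C57BL/6 value was under the limit and was set to 420.8, so the log2 fold change of 0.81 (SE 0.36, interval -0.03 to 1.65, adjusted p = 0.377 in limma) depends on the limit. The groups did not overlap, but the probe set was tested only because both transgenic arrays, where it was higher, exceeded the limit. The subunits had no common sign, since Eif3f, Eif3j1 (0.38) and Eif3b had positive values and Eif3c, Eif3d and Eif3e negative ones.

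**Figure D3:**
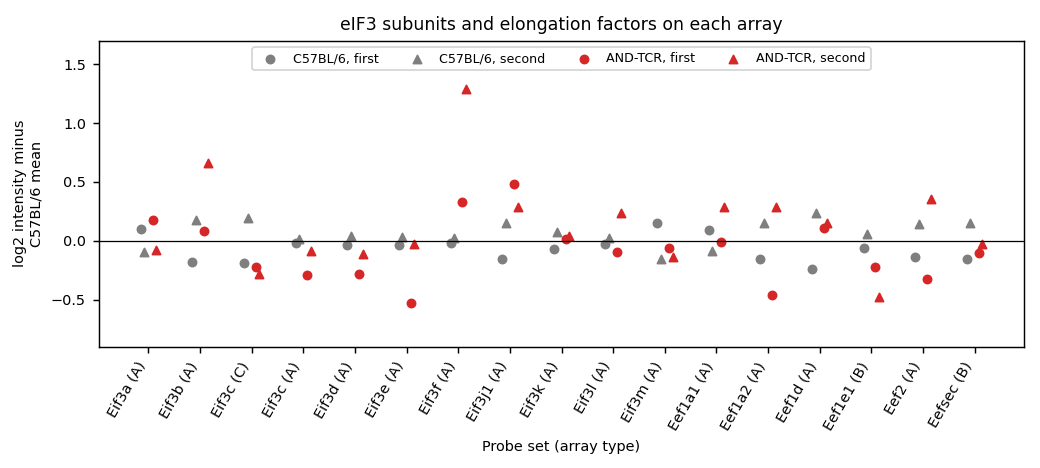
Log2 intensity of each eIF3 and elongation factor probe set on each array, as the difference from the mean of the C57BL/6 arrays (vertical axis), by probe set (horizontal axis). Circles are first and triangles second hybridizations, gray is C57BL/6 and red is AND-TCR–transgenic, and values under the limit are drawn at it. Red and gray points intermix for most probe sets, such as Eif3k and Eef2.

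The elongation factors had narrow intervals. Those of all 6 tested probe sets lay within 2-fold in either direction, between -0.81 and 0.64, and 3 values, that of Eef2 among them as scaled here, were positive and 3 negative. Eef1a1, which delivers tRNA and is among the most abundant mRNAs of most cells, read 92377 and 81598 in C57BL/6 and 86193 and 105948 in transgenic thymocytes. Its log2 fold change was 0.14 (SE 0.18, interval -0.30 to 0.57, adjusted p = 0.804 in limma). Eef2, the translocase, read 25654 and 31173 in C57BL/6 and 22564 and 36086 in transgenic thymocytes, so that the transgenic arrays enclosed the C57BL/6 ones. The log2 fold change of Eef2 was 0.01 (SE 0.23, interval -0.54 to 0.56, adjusted p = 0.99 in limma), and its sign turned with the scaling of the arrays, to -0.035 after quantile normalization and -0.0072 after scaling by the median of detected probe sets.

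Eef1d, part of the exchange complex of eEF1A, read 3548 and 4936 in C57BL/6 and 4525 and 4644 in transgenic thymocytes, with an interval from -0.34 to 0.60. Eef1e1, a small protein of the aminoacyl-tRNA synthetase complex, was the elongation member with the lowest p. It read 4889 and 5305 in C57BL/6 and 4364 and 3659 in transgenic thymocytes, without overlap, and had a log2 fold change of -0.35 (SE 0.16, interval -0.75 to 0.05, adjusted p = 0.42 in limma). Eef1a2, the form of muscle and neurons, had -0.09, and Eefsec, which delivers selenocysteine tRNA, had -0.07.

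Of the enzymes that modify elongation factors, Eef2k, the kinase that inhibits eEF2, had values of -0.11, -0.12 and -0.23 on 3 tested probe sets. The one with the highest intensities, an f_at probe set on U74Cv2, read 9811 and 9743 in C57BL/6 and 8926 and 7766 in transgenic thymocytes, and its interval was from -0.73 to 0.27. Those groups did not overlap, while the groups of the U74Bv2 probe sets did. Both U74Bv2 probe sets were tested only through the C57BL/6 arrays, where their means were higher. Their second transgenic readings, 847 and 724, were under the limit and were raised to it. Eef1aknmt, a methyltransferase of eEF1A, had 0.52 (SE 0.31, adjusted p = 0.55 in limma), and Eef1akmt1 had -0.07 and 0.15. Eif6, which keeps the large ribosomal subunit apart from the small one, read 1897 and 2770.1 in C57BL/6 and 2245 and 2635 in transgenic thymocytes on U74Av2, with a log2 fold change of 0.09 there and -0.07 on U74Cv2. Eif5a2, a relative of the hypusine-bearing eIF5A, had -0.42, with 1 transgenic array under the limit.

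Of the 64 tested probe sets, 29 (45.3%) differed in the same direction between first hybridizations and between second hybridizations, against 57.7% of all tested probe sets. The median log2 ratio was 0.03 in the first and -0.15 in the second experiment. In all, 7 probe sets were higher without overlap of the groups (10.9%, against 23% of all tested) and 11 were lower without overlap (17.2%, against 21.4%). Several tested probe sets were at hand for 15 genes, and for 11 of these genes all had 1 sign, Eif1a, Eif4b, Eif6 and Eef1akmt1 being the exceptions. Among the 11, Eif1ax and Eef2k had probe sets that were tested only through C57BL/6, where those probe sets were higher. Probe sets whose names end in f_at were designed by the manufacturer on sequences shared within a family, so their signals may be mixed. The tested ones were 9, those of Eif2ak1, Eif4e and Eef1akmt1 (U74Bv2), of Eif2b2 and Eif4g2 on U74Bv2, of Eif2b4 and Eef2k on U74Cv2 and of Eif1ax on U74Bv2 and U74Cv2. Eif1a and Eif1ax are near-identical, and their signals may be mixed as well.

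**Figure D4:**
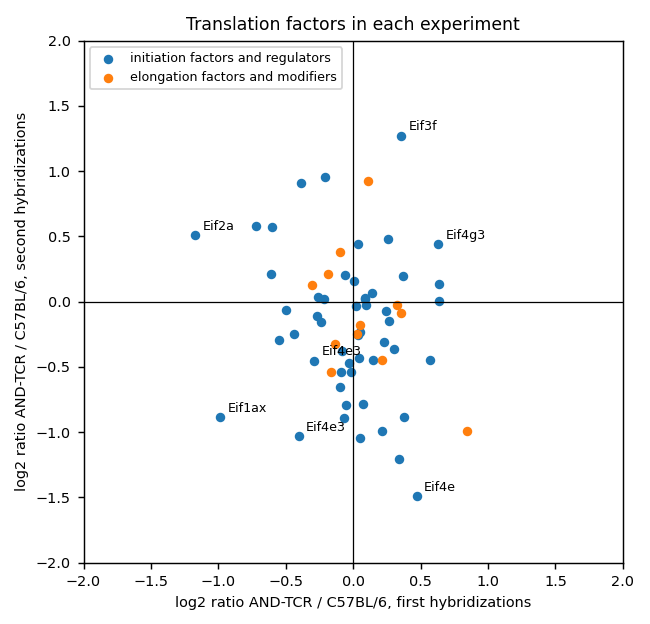
Log2 ratio of AND-TCR–transgenic over C57BL/6 in the first hybridizations (horizontal axis) against that in the second hybridizations (vertical axis) for the 64 tested probe sets, with initiation factors in blue and elongation factors in orange. Eif4e3, Eif1ax and Eif4g3 lie on the same side of 0 in both, and Eif4e and Eif2a lie on opposite sides.

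The other 57 probe sets were not tested. Of these, 42 were under the limit on all 4 arrays and 15 were above it on at least 1 array. Without a tested probe set were 11 genes, Eef1akmt2, Eef1b2, Eef1g, Eef2kmt, Eif2ak4, Eif2b3, Eif3i, Eif4e1b, Eif4ebp1, Eif4h and Eif5a. A reading under the limit belongs to the probe set and does not show that the mRNA was missing. Eef2, at 22564 or more on all U74Av2 arrays, also had probe sets on U74Bv2 and U74Cv2 that were not tested.

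Genes of translation with other names were compared in the same way. A list of 63 termination and recycling factors, poly(A)-binding proteins, mTOR and MNK regulators, mitochondrial factors, hypusine and diphthamide enzymes and aminoacyl-tRNA synthetases had 48 tested genes with 70 probe sets. None of these passed the test in limma, against 1.05% of all tested probe sets. At an unadjusted p under 0.05, 1 of the 70 was higher and 2 were lower, against 7.47% and 6.51% of all tested probe sets. The median log2 fold change was 0.02. The 23 probe sets of the synthetases had a median of 0.07 and the 11 of the termination and recycling factors one of -0.03. Ddit4, an inhibitor of mTORC1 signals, read 4923 and 4875 in C57BL/6 and 13631 and 8938 in transgenic thymocytes. The groups did not overlap, and the log2 fold change was 1.17 (SE 0.21, adjusted p = 0.058 in limma, 9.83e-04 with the replicate block). Paip2, which keeps poly(A)-binding protein off the mRNA, read 7907 and 7398 in C57BL/6 and 4469 and 3422 in transgenic thymocytes. Its log2 fold change was -0.97 (SE 0.18, adjusted p = 0.061 in limma, 0.00401 with the replicate block), again without overlap. Mknk1, a kinase of eIF4E, had -0.80 on one probe set and 0.24 on another.

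The cell types of the samples were checked with marker lists. Of 8 tested markers of CD4+CD8+ double-positive thymocytes, 8 were lower in transgenic thymocytes (Arpp21, Cd8a, Cd8b1, Dntt, Endou, Ly6d, Rag1 and Rag2), with summed intensities of 57484 to 67179 against 165740 to 166899 in C57BL/6. A gene was counted when any of its probe sets passed the test. Other probe sets of Arpp21, Dntt and Rag1 did not pass, that of Rag1 at -0.26 (adjusted p = 0.905 in limma). Of all tested probe sets 0.568% passed as lower and 0.483% as higher. Of 8 tested markers of single-positive thymocytes 4 passed the test as higher (Cd53, Gimap4, Ms4a4b and Slfn1). The sums over the 8 were 86571 to 96227 against 37698 to 39577. Ccr7 did not pass, with a log2 fold change of 2.01 (adjusted p = 0.051 in limma, 0.00238 with the replicate block). S1pr1 with 0.68 and Cd52 with 0.33 did not pass either, and Il7r went the other way with -0.44. Rag2 was tested only through the C57BL/6 arrays and S1pr1 only through the transgenic arrays, the group where each was higher. The 8 tested general thymocyte genes, which include Cd8a, had sums of 108723 to 115898 against 120629 to 130336. Cd8a, already counted above, was lower, and no other tested gene of this list passed the test. Log2 fold changes were negative for Cd4 (-0.56), Thy1 (-0.29) and Ptcra (-0.17), and positive for Cd3g (0.15) and Zap70 (0.29 and 0.34). Cd3e had 0.06 on U74Av2 and -0.03 on U74Bv2. Cd3d had 0.40 on U74Av2 and -0.44 on U74Cv2, where it was tested only through the C57BL/6 arrays. The median over the 11 probe sets was -0.03. None of 12 tested cell-cycle genes passed the test, their sums were 44852 to 50231 against 58141 to 58213, and their median log2 fold change was -0.34. In whole thymocytes, fewer cells of a type and less RNA per cell cannot be told apart, and the part of these shifts in the values of the translation factors was not tested.

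None of the tested markers of other cells passed the test in limma without the replicate block, and Cd79a, Hba-a1 and S100a8 had an unadjusted p under 0.05. The sum of 3 tested B cell genes was 1244 to 1665 in transgenic and 2626 to 2695 in C57BL/6 thymocytes, and that of 4 tested myeloid genes 4258 to 5097 against 2282 to 3356. Cd79a and Cd79b were tested only through the C57BL/6 arrays, and Lyz2 and Csf1r only through the transgenic arrays. Each was higher in that group, so the filter has a part in these sums. Of the erythroid list Hba-a1 was tested, and read 4378 to 6639 in transgenic against 9710 to 11407 in C57BL/6 thymocytes. Its log2 fold change was -0.96 (adjusted p = 0.106 in limma), and with the replicate block it passed the test (adjusted p = 0.00877). Of the stromal list 1 of 6 genes was tested, at 1741 to 3862 against 2498 to 2611. Their part in the results was not tested.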

How the data were processed

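The authors made biotin-labeled cRNA from total thymocyte RNA, hybridized it to Affymetrix arrays of 3 types, 2 hybridizations per group and type, and analyzed the scans with Microarray Suite software. Deposited were linear intensities, of which 20.1% to 37.8% per array were negative. What kind of value they are, and the scaling target, is not stated in the sources used here. As deposited, the mean that leaves out 2% of values at each end lay between 1000.4 and 1000.9 on every array.

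Within an array type, each array was scaled to the mean of the 4 means that leave out 2% of values at each end. The noise SD was 1.4826 times the median of the negative values without their sign. Values under 2 noise SDs were set to that limit, and log2 values were tested with limma 3.58.1 (lmFit, eBayes with trend) in R 4.3.3, 1 fit per array type, with Benjamini-Hochberg adjustment over all 12844 tested probe sets at 0.05. The number of arrays limits the precision. Ratios within an experiment divide arrays of equal hybridization number. The numbers mark the day on which arrays were run, per the file headers, and the deviations of same-numbered arrays from their group means correlated at 0.04 (U74Av2), -0.12 (U74Bv2) and -0.23 (U74Cv2).

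Gene symbols came from the annotation of the platform, and all 121 matched RefSeq by gene identifier. The genes in the text are the up to 4 with the smallest unadjusted p in each role class, the core factors, and all tested probe sets of these genes. Eif1a, Eif1b, Eif2a, Eif2b1, Eif2b4, Eif3d, Eif3j1, Eif3k, Eif3l, Eif3m, Eif4b, Eif4e2, Eif4g2, Eif5, Eif5b, Eef1a2, Mknk1, Ddit4, Paip2, Xist and Kdm5d were chosen after their values were seen. The members and lists were chosen with earlier results of these data known. Alternatives covered the limit, the filter, the scaling, the adjustment, the trend and the replicate block, and each hybridization was left out in turn. Python 3.11.15 with matplotlib 3.10.9 drew the figures.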

Additional observations from a re-analysis of the deposited data

How the results depend on the processing

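With 2 hybridizations per group and intensities near the detection limit for some factors, small changes could not be detected. No translation factor passed the test under any setting other than those named next. Without the filter on low values, all 121 probe sets were tested, and 1 was higher (Eif3i) and 2 were lower (Eif4e2 and Eif4e3). That was 2.48% of the factors, near the 2.22% of all probe sets called in this setting. Eif3i and Eif4e2 were under the limit on 3 of 4 arrays and had log2 fold changes of 0.027 and -0.059. The replicate block left the counts at 0 higher and 0 lower and the median at -0.09. It called 1 higher and 1 lower probe set among the other translation genes, Ddit4 and Paip2, as did the filter for values above the limit on all 4 arrays. Of all tested probe sets, the block called 2.38% and that filter 2.55%. A crossed replicate block, added after seeing the negative pairing correlations, called 1 translation factor lower, Eif4e3 (adjusted p 0.035), and 1 higher and 1 lower of the other translation genes. The Eif4e3 call was 1.56% of the tested factors, against 3.54% of all tested probe sets called in this setting. Adjusted within each array type, 1 of the other translation genes was higher, and without the filter 1 was lower (Dhx29). The Dhx29 probe set that met the filter went the other way, with a log2 fold change of 0.21. Another, on U74Bv2, exceeded the limit only on the first C57BL/6 array, at 971. The median log2 fold change of the tested factors ran from -0.12 to 0.00 over all settings. Leaving out any 1 hybridization left no call among the factors, nor among all 12844 probe sets. Over all tested probe sets the calls ran from 10 without a trend to 816 without the filter, against 135 as reported.

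The sign turned for Eef2 with quantile normalization (-0.035) and with scaling by the median of detected probe sets (-0.0072), for a U74Bv2 probe set of Eif1ax with quantile normalization (0.044) and for Eef1akmt1 on U74Av2 with a limit of 1 noise SD (0.013). The cause was not tested. When 1 hybridization was left out, the log2 fold change ran from -0.69 to 0.18 and from -0.35 to 0.053 for Eif2b2, from -0.11 to 0.74 for Eif2d, from -0.89 to 0.020 for Eif2s2, from -0.72 to 0.095 for Eif2ak3, from -0.78 to 0.025 for Eif4a1 and from -1.39 to 0.37 for Eif4e. It ran from -0.40 to 0.92 for Eif4ebp2, from -0.61 to 0.20 for Eif4enif1, from -0.19 to 0.36 and from -0.64 to 0.49 for Eif6, from -0.90 to 0.12 for Eif1ad and from -0.20 to 0.14 for Eif1ax on U74Bv2. For the elongation factors it ran from -0.010 to 0.29 for Eef1a1, from -0.11 to 0.37 for Eef1d, from -0.33 to 0.35 for Eef2, from -0.22 to 0.087 for Eefsec, from -0.60 to 0.46 and from -0.29 to 0.59 for Eef1akmt1, and from -0.47 to 0.25 and from -0.51 to 0.27 for Eef2k. Without a change of sign it still moved widely for Eif2ak1 (0.010 to 0.73), Eif3f (0.33 to 1.29), Eif3b (0.080 to 0.66), Eif3e (-0.53 to -0.031), Eif2b5 (-0.80 to -0.20), Eif5a2 (-0.77 to -0.078), Eef1aknmt (0.24 to 0.79) and the Eif1ax probe set with the lowest p (-1.31 to -0.56). For both Eif4e3 probe sets it was negative throughout, and for Eif4g3 positive.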
